A study of Mus musculus with 6 samples.

Results

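Protein kinase A (PKA) is the kinase that cyclic AMP switches on, and the 10 genes described here encode its main subunits and part of the transcription machinery it acts on. They are the catalytic subunit genes Prkaca and Prkacb, the regulatory subunit genes Prkar1a, Prkar1b, Prkar2a and Prkar2b, the transcription factor genes Creb1 and Crem, and the coactivator genes Crtc1 and Crtc2. They were chosen by gene symbol, and all 10 were found among the 45777 genes of the deposited count table. All 10 also passed the filter on low counts that left 19227 genes for testing. The libraries were made from the anterior cingulate cortex, a frontal midline area, of mice of the inbred strain BALB/c. The 3 stress libraries came from mice given social defeat, in which an aggressive mouse subordinates another, for 5 days, and the 3 non-stress libraries from mice of that strain without it. Strain and tissue were thus shared by both groups, and the labels give no genetic change, age or sex. They do not say whether a library is 1 animal or a pool, so p-values measure the spread between these libraries, which may be technical.

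In the resting kinase a pair of regulatory subunits holds a pair of catalytic subunits inactive. Cyclic AMP, made by adenylyl cyclases and broken down by phosphodiesterases, binds the regulatory subunits and frees the catalytic ones, which phosphorylate channels, receptors and, in the nucleus, CREB (the product of Creb1). CREB binds the cyclic AMP response element (CRE), and CRTC proteins enter the nucleus on dephosphorylation and join it there. In cortical neurons this route links receptor signals and activity to transcription and lasting synaptic change.

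The libraries held 41623899 to 47212982 counts each. On the principal component with the most variance (34.5%), 2 non-stress libraries stood apart, replicate 2 at 37.4 and replicate 3 at 27.4. The remaining non-stress library (-11.7) was placed near the stress libraries (-20.4 to -14.9). Excitatory neuron markers summed to 1814.5 to 1968.5 CPM (counts divided by the library's total and scaled up) over the 6 libraries, and microglial markers to 256.8 to 271.9 CPM. All 5 markers of each list were detected, and no tested marker of 9 cell type or tissue lists passed the test described below. That test called 0.0052% of all genes, so this does not show that cell composition was equal. Of markers that are also pathway genes, DESeq2 called the interneuron marker Sst, higher in stress. Without non-stress 1, edgeR called the striatal marker Ppp1r1b, lower in stress. Striatal markers summed to 159.8 to 195.0 CPM in non-stress and 165.3 to 177.1 CPM in stress. Most of these sums came from Ppp1r1b (130.5 to 165.4 CPM in non-stress and 136.8 to 144.1 CPM in stress), which is also a pathway gene below. Pituitary hormone markers summed to 1.14 to 2.97 CPM in non-stress and reached more than that in each stress library (3.79 CPM in the lowest), and their part in the values below was not tested. In such tissue samples, fewer cells of a type and less RNA per cell cannot be told apart.

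The consensus CRE reads TGACGTCA, and its half-site TGACG is also bound by CREB. RefSeq promoter windows (GRCm38.p6, from 250 bases before to 50 after a transcript start) were at hand for 8 of the 10 genes, 21 windows in all, and none for Crem or Crtc2. A search of both strands found the full element in 2 of the 21 windows, both of Prkar1a and covering the same copy, against 1.79% of all 32851 windows. The half-site, which the full element contains, occurred in 7 windows of 5 genes (33.3% of the windows, against 20.8% of all). The 2 Prkar1a windows with the full element overlap and hold the same half-sites, so windows are not independent and the shares do not test enrichment. The windows below are shown because they place letters that CREB can bind at starts of the kinase's own genes. Capitals mark the full element or half-sites on either strand, and each window runs 5′ to 3′ on the gene's strand.
Prkar1a, chr11:109650699-109650998, plus strand: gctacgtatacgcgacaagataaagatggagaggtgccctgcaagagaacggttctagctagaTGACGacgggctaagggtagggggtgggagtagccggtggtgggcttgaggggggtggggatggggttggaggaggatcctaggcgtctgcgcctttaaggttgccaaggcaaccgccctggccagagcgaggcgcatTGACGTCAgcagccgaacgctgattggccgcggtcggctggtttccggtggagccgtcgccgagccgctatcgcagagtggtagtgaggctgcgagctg
Prkaca, chr8:83972728-83973027, plus strand: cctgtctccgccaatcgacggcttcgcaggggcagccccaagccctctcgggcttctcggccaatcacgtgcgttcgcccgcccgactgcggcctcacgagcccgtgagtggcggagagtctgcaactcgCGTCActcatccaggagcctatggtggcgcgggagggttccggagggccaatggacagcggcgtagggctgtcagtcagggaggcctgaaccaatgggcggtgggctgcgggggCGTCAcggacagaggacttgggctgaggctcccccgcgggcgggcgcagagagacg
Prkacb, chr3:146812897-146813196, minus strand: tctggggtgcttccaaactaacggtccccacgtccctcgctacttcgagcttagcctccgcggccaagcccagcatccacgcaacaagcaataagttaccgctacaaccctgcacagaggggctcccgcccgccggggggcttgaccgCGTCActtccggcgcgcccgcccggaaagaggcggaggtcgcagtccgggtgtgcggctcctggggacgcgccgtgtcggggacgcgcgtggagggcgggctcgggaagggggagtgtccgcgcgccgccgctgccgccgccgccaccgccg
In the Prkar1a window the full element begins 49 bases before the start. In Prkaca the half-sites begin 120 and 6 bases before the start, and in Prkacb 102 bases before it. These are matches of letters and not measured binding. Prkar1a, Prkacb and Prkaca have 6, 3 and 2 such windows, and counts per gene do not show which start was used.

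Per length, the regulatory subunits of type I were the most abundant messages of the group. On the RPKM scale (CPM per kilobase of exon), Prkar1b stood highest at a mean of 441.1 over the 6 libraries (422.7 to 470.1), above 99.3% of the tested genes with a known length. Prkar1a followed at 263.3 RPKM (254.9 to 270.9). The catalytic genes Prkaca (78.7 to 100.2) and Prkacb (74.5 to 82.4) came next, with ranges that overlapped. Prkar2b stood at 23.3 RPKM, Crtc1 at 17.7 and Prkar2a at 9.73, each apart from its neighbours over all 6 libraries. Crem (5.52 to 6.50) and Crtc2 (4.43 to 7.08) overlapped, and Creb1 was lowest at 3.32 RPKM (2.71 to 3.66), above 44.0% of tested genes. Part of this order depends on the length taken: with the longest transcript in place of all exons, the means of Prkaca and Prkacb were 93.4 and 95.2 RPKM and Crem (9.36 to 11.0) overlapped Prkar2a (9.01 to 10.6) and no longer Crtc2.

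**Figure D1:**
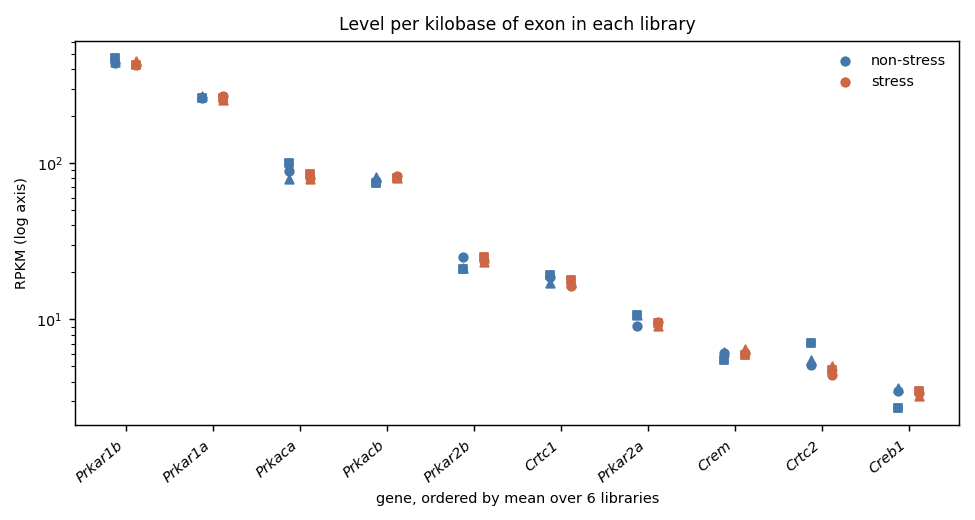
Level of each gene in RPKM (log axis) in each of the 6 libraries, ordered by the mean, with non-stress in blue and stress in orange and marker shapes for replicates 1 to 3. Prkar1b (422.7 to 470.1) and Prkar1a (254.9 to 270.9) lie above the rest, and the groups lie close together within each gene.

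The subunits' shares of the kinase messages overlapped between the groups. Type I genes took 95.3%, 95.9% and 95.7% of the regulatory RPKM in replicates 1, 2 and 3 of non-stress, against 95.4%, 95.2% and 95.6% in those of stress. Prkar1b alone took 60.2% ± 1.12 in non-stress and 59.4% ± 1.36 in stress (SD, n = 3). The catalytic genes summed to 22.3% ± 0.778 of the regulatory sum in non-stress and 22.4% ± 0.800 in stress (SD, n = 3). Prkacb made up 46.4%, 42.6% and 50.9% of the catalytic RPKM in non-stress, against 50.7%, 48.7% and 50.4% under stress, so the groups overlapped. These are shares of messages, which need not match those of proteins.

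The comparison of stress with non-stress bears on the cyclic AMP signalling that the series title names. None of the 10 genes was called by the quasi-likelihood test of edgeR at a threshold of 0.05 after Benjamini-Hochberg adjustment (of all genes, 0.0052% were called, which is 1 gene). At an unadjusted p under 0.05 there was 1 member, Crtc2, against 12.1% of all tested genes. DESeq2 and limma-voom also called 0 of the 10 after adjustment (1.0% and 0.0104% of genes called). Both had 1 member at an unadjusted p under 0.05. The share of all genes at that cut-off was not taken for these tools, so whether 1 member is many or few there was not tested. Without non-stress 1, edgeR called 3.85% of the genes tested and still 0 of the 10. Log2 fold changes (stress over non-stress) were above 0 for 4 members and below 0 for 6 (49.8% of all tested genes lay above 0), with a median of -0.04 against 0.00 for all tested genes. The median absolute log2 fold change was 0.08, against 0.07 for the 10053 tested genes with a mean of at least 10 CPM.

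**Figure D2:**
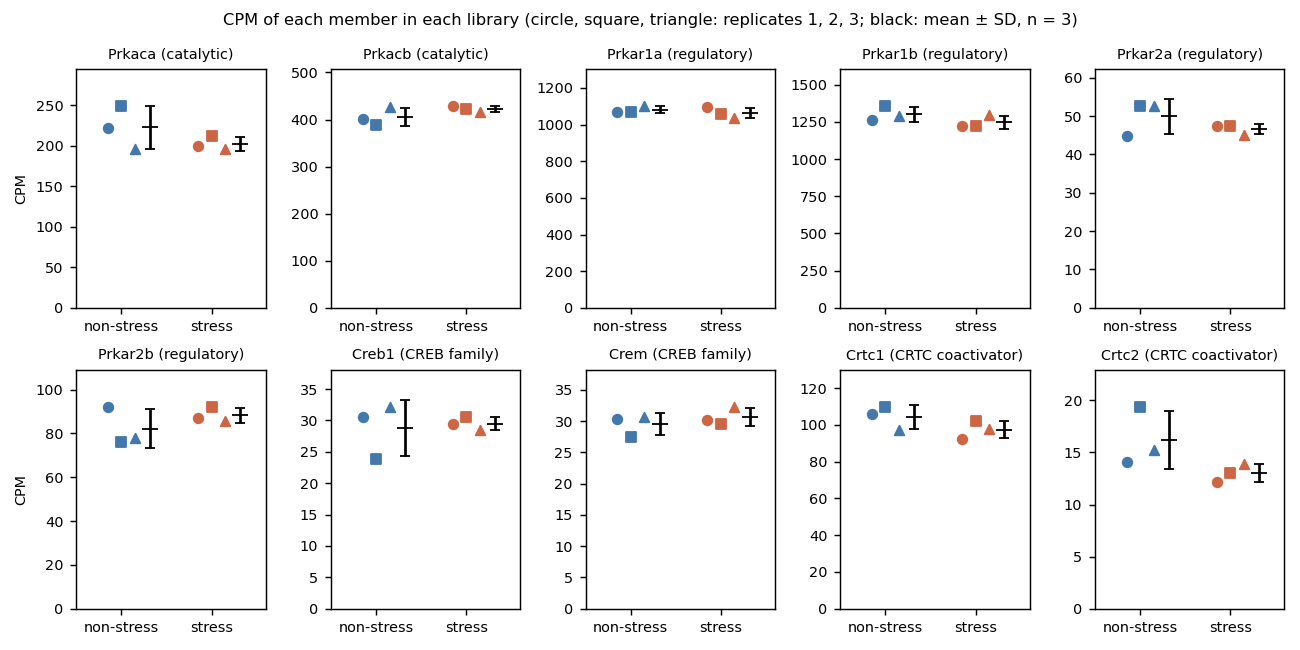
CPM of each gene in each library, from 0, with replicates 1, 2 and 3 as circle, square and triangle and the mean ± SD (n = 3) in black. The groups overlap in every panel but that of Crtc2, where the stress libraries (12.2 to 13.9 CPM) lie below the non-stress ones (14.1 to 19.4 CPM).

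Of the catalytic genes, Prkaca (chromosome 8, 83972978 to 83996444) encodes the alpha subunit. It stood at 222.0, 249.3 and 196.3 CPM in non-stress 1, 2 and 3 and at 199.6, 212.1 and 195.7 CPM in stress 1, 2 and 3. Non-stress 2 was the highest library and non-stress 3 lay among the stress values. Its log2 fold change was -0.14 (95% interval -0.31 to 0.04, adjusted p = 0.502 by edgeR), which was -0.04 without non-stress 2. The pseudogene Prkaca-ps1 had 0 counts in each library.

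Prkacb (chromosome 3, 146729579 to 146812946) encodes the beta subunit, which has several alternative first exons. It stood at 402.2, 388.2 and 425.6 CPM without stress and at 429.4, 421.5 and 416.5 CPM with it. Non-stress 2 was here the lowest library, and non-stress 3 lay within the stress range. The log2 fold change was 0.06 (95% interval -0.03 to 0.15, adjusted p = 0.573 by edgeR).

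Among the regulatory genes, Prkar1a and Prkar1b encode the type I alpha and beta subunits, the latter mainly neural. Prkar1a (chromosome 11, 109649023 to 109669663) stood at 1067.3, 1070.8 and 1102.7 CPM in non-stress and 1093.4, 1058.8 and 1037.4 CPM in stress. Its coefficients of variation were 1.81% and 2.66%, and its log2 fold change of -0.02 had a narrow 95% interval of -0.10 to 0.06. Prkar1b (chromosome 5, 139017304 to 139150703) stood at 1259.9, 1358.6 and 1289.0 CPM in non-stress and 1222.9, 1221.7 and 1295.8 CPM in stress. Stress 3 lay above 2 of the non-stress libraries, and the log2 fold change was -0.06 (95% interval -0.16 to 0.03). Exons of Gm15672, on the same strand and with no row of that name in the table, overlap 8.95% of the exon length of Prkar1b, so reads of the 2 cannot be told apart there. The edgeR adjusted p-values were 0.831 for Prkar1a and 0.559 for Prkar1b.

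Prkar2a and Prkar2b encode type II subunits, which bind anchoring proteins and place the kinase at membranes and the cytoskeleton. Prkar2a (chromosome 9, 108692143 to 108750444) stood at 44.7, 52.6 and 52.7 CPM in non-stress and 47.5, 47.3 and 45.1 CPM in stress. Prkar2b (chromosome 12, 31958450 to 32061648) stood at 92.2, 76.3 and 78.0 CPM in non-stress and 87.0, 91.9 and 85.6 CPM in stress. In both genes non-stress 2 and 3 lay on one side of the stress values and non-stress 1 on the other. The log2 fold changes were -0.10 (95% interval -0.26 to 0.06) and 0.10 (95% interval -0.06 to 0.26), each with an adjusted p = 0.577 by edgeR. With non-stress 1 as the sole non-stress library compared, both turned sign, to 0.06 and -0.06. That fit assumes that a lone library varies like the others.

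The CREB family genes were the least abundant in CPM apart from Crtc2. Creb1 (chromosome 1, 64532794 to 64604548) stood at 30.5, 23.8 and 32.2 CPM in non-stress and 29.5, 30.5 and 28.5 CPM in stress. Non-stress 2 was the lowest library, and the other 5 lay between 28.5 and 32.2 CPM. The log2 fold change was 0.04 (95% interval -0.19 to 0.26, adjusted p = 0.901 by edgeR) and turned to -0.08 without non-stress 2.

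Crem (chromosome 18, 3266354 to 3337773) encodes a CREB relative whose many transcripts include activators and repressors. It stood at 30.3, 27.4 and 30.7 CPM in non-stress and 30.1, 29.6 and 32.3 CPM in stress, and its log2 fold change was 0.06 (95% interval -0.09 to 0.20, adjusted p = 0.749 by edgeR). The table has 1 row for the gene, so the short cyclic AMP-inducible repressor forms were not separated from the rest. Exons of Gm6225 on the opposite strand cover 8.01% of its exon length, and that gene had 11 to 18 counts per library against 1251 to 1450 for Crem.

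The coactivators sense calcium and cyclic AMP together, since calcineurin frees them and PKA inhibits the kinases that hold them in the cytoplasm. Crtc1 (chromosome 8, 70382352 to 70439702), the form known for its role in neurons, stood at 106.0, 109.9 and 97.1 CPM in non-stress and 92.5, 101.9 and 97.8 CPM in stress. The groups overlapped, and the log2 fold change was -0.10 (95% interval -0.23 to 0.03, adjusted p = 0.515 by edgeR).

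Crtc2 (chromosome 3, 90253858 to 90264125), best known from glucose production in the liver, was the single member whose groups did not overlap, as held for 17.9% of all tested genes (9.43% with stress lower). It had 609, 918 and 637 counts without stress and 506, 566 and 624 with it, or 14.1, 19.4 and 15.2 CPM against 12.2, 13.0 and 13.9 CPM. Non-stress 2 stood well above the rest, and the gap between the groups was the small one between stress 3 and non-stress 1. The means were 16.2 ± 2.82 and 13.0 ± 0.873 CPM (SD, n = 3). The log2 fold change was -0.32 (95% interval -0.59 to -0.05, for this gene alone), with an unadjusted p of 0.0255 and an adjusted p of 0.38 by edgeR. It was -0.16 without non-stress 2 and -0.11 with non-stress 1 as the sole non-stress library. The closest profiles over the 6 libraries, by root mean square difference of centred log2 CPM among 9595 genes, were those of the kinase gene Map3k11 (0.0229), the adrenergic receptor gene Adra1b (0.0415) and the natriuretic peptide receptor gene Npr2 (0.0429). In all 3, as in Crtc2, non-stress 2 was the highest library, which largely follows from how they were picked. Adra1b passed without non-stress 1 (adjusted p = 0.0387 by edgeR).

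**Figure D3:**
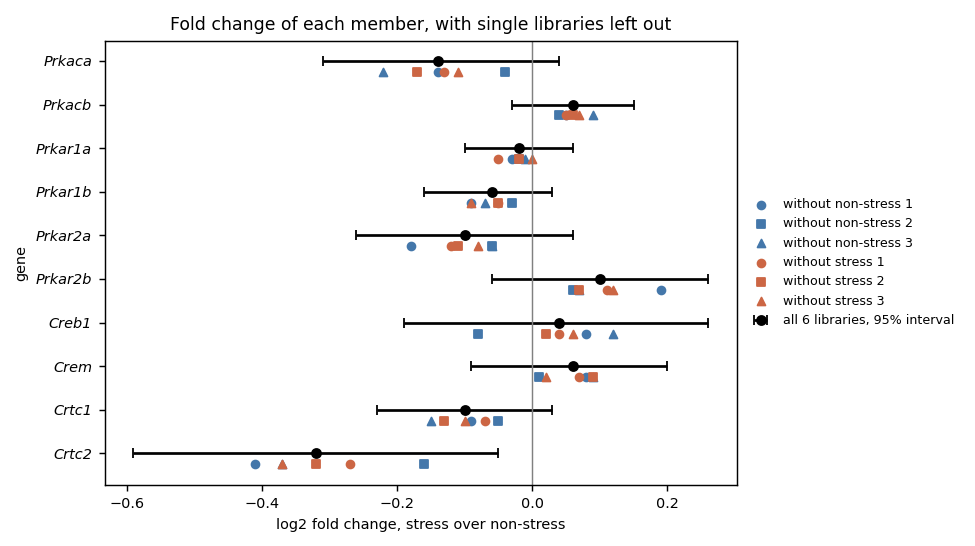
Log2 fold change of stress over non-stress for each gene with its 95% interval (black), and below it the values with 1 library left out (blue for a non-stress library, orange for a stress library). Without non-stress 2 the value of Crtc2 is -0.16 and that of Prkaca is -0.04, and every interval but that of Crtc2 includes 0.

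The non-stress libraries varied more than the stress libraries in most members, and non-stress 2 was often at an extreme. The coefficient of variation was larger in non-stress than in stress for 9 of the 10 genes, all but Prkar1a, against 65.6% of all tested genes. Non-stress 2 was the highest or the lowest of the 6 libraries for 8 of the 10, against 51.2% of genes. It was highest for Prkaca, Prkar1b, Crtc1 and Crtc2, and lowest for Prkacb, Prkar2b, Creb1 and Crem.

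The members divided by base composition in the same way. The 4 genes highest in non-stress 2 had the most GC in their longest transcript, with 59.2% in Crtc1, 57.1% in Crtc2, 55.9% in Prkar1b and 54.9% in Prkaca. The 4 lowest there had 39.6% in Creb1, 43.2% in Crem, 44.1% in Prkar2b and 45.4% in Prkacb. Relative to the mean of the other 5 libraries, log2 CPM in non-stress 2 ran from -0.34 in Creb1 to 0.50 in Crtc2. Across the 17313 tested genes with a known transcript, GC content and this difference had a Pearson r of 0.422 in non-stress 2 and between -0.24 and 0.114 in the other libraries. These points share 1 library's preparation and depth, and genes are not independent. With a smooth trend on GC content taken out of each library, the log2 fold change was -0.25 for Crtc2 (adjusted p = 0.333 by edgeR), -0.09 for Prkaca, -0.02 for Crtc1, -0.01 for Prkar1b, 0.04 for Prkacb, 0.07 for Prkar2b and 0.02 for Crem, each nearer to 0 than before. It was -0.11 for Prkar2a and -0.04 for Prkar1a, which were not, and it turned sign to -0.06 for Creb1. Taking the trend out can also take out a stress difference that follows GC content. The part of base composition in the member values beyond that fit was not tested.

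**Figure D4:**
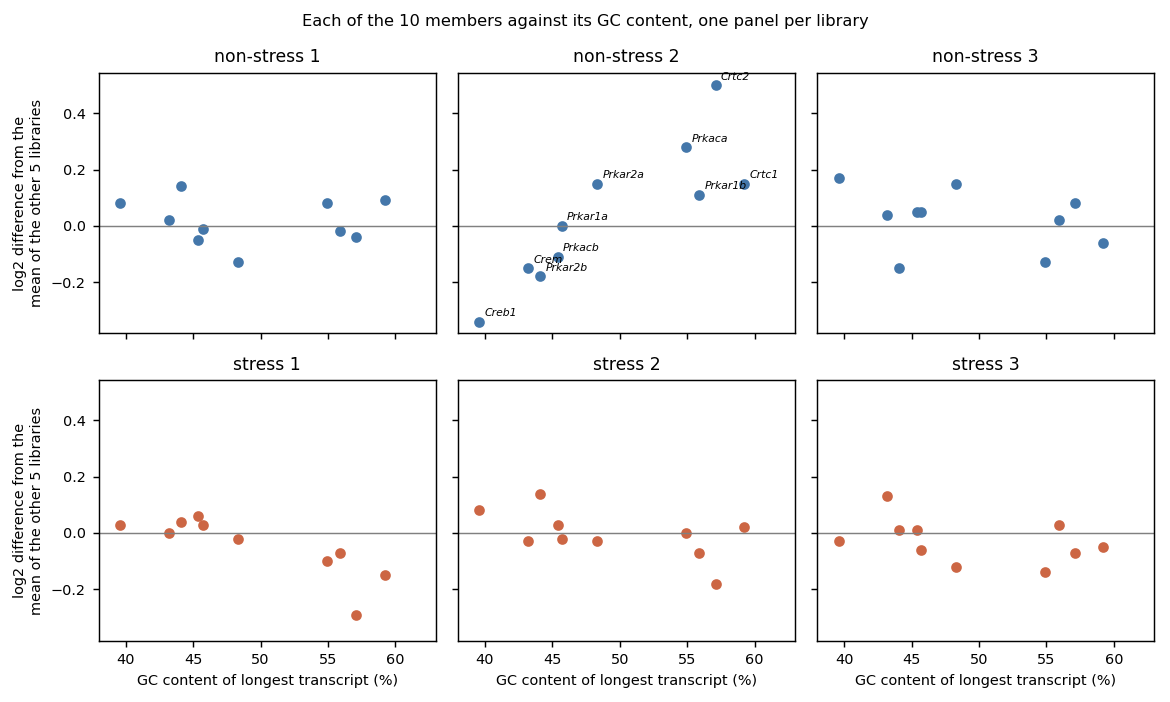
Log2 difference of each of the 10 genes from the mean of the other 5 libraries (vertical axis) against the GC content of its longest transcript in percent (horizontal axis), 1 panel per library. In non-stress 2 the points run from -0.34 for Creb1 (39.6% GC) to 0.50 for Crtc2 (57.1% GC).

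Around the 10 genes, 129 of 134 other genes of the pathway, in 10 lists, were tested, and edgeR called 0 of them after adjustment. DESeq2 gave an adjusted p to 105 and called 9 (8.57%, 1 higher and 8 lower in stress), against 1.0% of all genes it gave one, and limma-voom called 0. Without non-stress 1, edgeR called 15 of 131 (11.5%, 8 higher and 7 lower), against 3.85% of all genes. At an unadjusted p under 0.05 there were 12 higher and 18 lower in stress, against 5.8% and 6.27% of all tested genes in these directions. The median log2 fold change of the 129 was 0.00, as for all tested genes. As the lists were chosen with earlier results of these data known, the shares of calls above do not test the pathway as a set.

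The PKA inhibitor peptides bind free catalytic subunits and carry them out of the nucleus. With all libraries 3 of 3 of their genes lay above 0, against 49.8% of all tested genes, with a median log2 fold change of 0.13. Pkig stood at 190.9, 181.2 and 181.6 CPM in non-stress and 200.3, 202.2 and 202.1 CPM in stress (log2 fold change 0.13, unadjusted p = 0.00905, adjusted p = 0.346 by edgeR), without overlap. Pkib stood at 18.9, 13.7 and 15.4 CPM against 22.1, 22.1 and 16.6 CPM, where stress 3 fell within the non-stress range (log2 fold change 0.34, adjusted p = 0.388 by edgeR). Pkia, the highest of the 3 in CPM, differed by 0.08 on that scale (edgeR, adjusted p = 0.461). Its value turned below 0 with the GC trend taken out.

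Of 20 tested anchoring protein genes (AKAPs), 7 lay above 0 and 13 below, with a median of -0.02. Akap9, a large centrosomal and Golgi scaffold, stood at 99.4, 56.0 and 58.4 CPM in non-stress and 100.9, 102.2 and 100.6 CPM in stress (log2 fold change 0.51, adjusted p = 0.363 by edgeR). Its low values were those of non-stress 2 and 3, while non-stress 1 lay next to the stress libraries. Akap9 passed without non-stress 1 (adjusted p = 9.51e-06 by edgeR) and not without non-stress 2 (log2 fold change 0.36, adjusted p = 0.622 by edgeR). With non-stress 1 as the sole non-stress library its log2 fold change was 0.03. Akap7 differed by 0.13 (edgeR, adjusted p = 0.386).

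Upstream, 4 of 10 adenylyl cyclase genes lay above 0 and 6 below. Adcy1, the calcium-stimulated cyclase of neurons, stood at 250.4, 246.8 and 259.5 CPM in non-stress and 217.0, 226.3 and 224.8 CPM in stress, without overlap (log2 fold change -0.18, adjusted p = 0.344 by edgeR). Adcy9 stood at 44.0, 42.1 and 47.4 CPM against 37.6, 37.2 and 37.6 CPM (log2 fold change -0.25, adjusted p = 0.344 by edgeR). DESeq2 called both, with adjusted p = 0.00602 and 0.0395, and edgeR called Adcy1 without non-stress 1 (adjusted p = 0.0359). In that setting edgeR called 3 of 10 cyclases (30.0%, 2 higher and 1 lower in stress), against 3.85% of all genes. The 2 higher were Adcy7 and Adcy8. Adcy7, chosen after its values were seen, had the largest difference of the list and lay in the other direction, at 9.42, 7.99 and 6.29 CPM in non-stress against 10.9, 10.2 and 11.8 CPM, without overlap (log2 fold change 0.47, adjusted p = 0.344, or 0.0246 without non-stress 1, by edgeR). Of the 16 cyclic AMP phosphodiesterase genes, 9 lay above 0 and 7 below, and Pde1b and Pde8a had the smallest p-values (log2 fold changes -0.20 and -0.31, edgeR adjusted p = 0.374 and 0.411). Pde8a passed without non-stress 1 (adjusted p = 0.0395 by edgeR). Among 10 tested effectors of cyclic AMP besides PKA, 6 lay above 0 and 4 below, with a median of 0.03.

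On the CREB side, 7 relatives and acetyltransferase coactivators had log2 fold changes of -0.08 to 0.14, and their smallest adjusted p-values were those of Atf7 (0.636) and Atf2 (0.663) by edgeR. Crtc3, the remaining CRTC gene, stood at 5.04 to 6.69 CPM in non-stress and 5.77 to 7.23 CPM in stress. Of 14 kinases that can phosphorylate CREB, 7 lay on each side of 0. Camk2g stood at 55.6, 56.9 and 57.4 CPM in non-stress and 48.4, 47.7 and 51.1 CPM in stress (log2 fold change -0.21, adjusted p = 0.344 by edgeR). Rps6ka3 stood at 17.0, 7.63 and 8.77 CPM against 20.0, 17.8 and 18.4 CPM (log2 fold change 0.75, adjusted p = 0.351 by edgeR), with non-stress 1 again near the stress values. It passed without that library (adjusted p = 9.99e-05 by edgeR) and not without non-stress 2 (log2 fold change 0.54, adjusted p = 0.59 by edgeR). With non-stress 1 as the sole non-stress library the log2 fold change of Rps6ka3 was 0.14.

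The 14 tested genes that control CRTC location also divided evenly around 0. Mark2, a kinase that phosphorylates CRTC2, differed by a log2 fold change of -0.20 (edgeR, adjusted p = 0.367). The calcineurin gene Ppp3cb had a value of -0.12 (adjusted p = 0.447 by edgeR). In the 5 cyclic AMP-regulated phosphoprotein genes the leading values were 0.16 for Arpp21 (adjusted p = 0.473 by edgeR) and -0.12 for Ppp1r1b, which encodes DARPP-32 (adjusted p = 0.564 by edgeR). Both passed without non-stress 1 (adjusted p = 0.00285 and 0.0313 by edgeR).

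Among 31 known CREB target genes other than Crem, 14 lay above 0 and 17 below, with a median of -0.03, and 4 higher and 9 lower had an unadjusted p under 0.05, against 5.8% and 6.27% of all tested genes. The nuclear receptor gene Nr4a1 (log2 fold change -0.64) and the AP-1 gene Junb (-0.27) led the list, with edgeR adjusted p = 0.0944 and 0.155, and DESeq2 called both. The list was chosen with earlier results of these data known, so its shares of calls do not test CREB targets as a set. DESeq2 gave an adjusted p to 24 of the targets and called 7 (29.2%, against 1.0% of all genes). The other 5, named after their values were seen, were Arc (adjusted p = 0.000738), the dynorphin precursor gene Pdyn (0.0090), the phosphatase gene Dusp1 (0.0166) and Egr1 (0.0203), all lower in stress, and the somatostatin gene Sst (0.0249), which was higher. EdgeR gave these 5 adjusted p = 0.309 to 0.344 with all libraries, and it called Arc and Pdyn without non-stress 1 (adjusted p = 0.045 and 0.00858) and Egr1 with non-stress 1 as the sole non-stress library (0.035). EdgeR called Nr4a1 and Junb without non-stress 1 (adjusted p = 0.00176 and 0.00987) and Nr4a1 without non-stress 2 (0.0281). Stress values of Nr4a1 and Junb lay below all non-stress values, at 33.9 to 35.7 CPM for Nr4a1 and 88.4 to 89.1 CPM for Junb. Most of these targets also respond to other activity-driven factors.

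**Figure D5:**
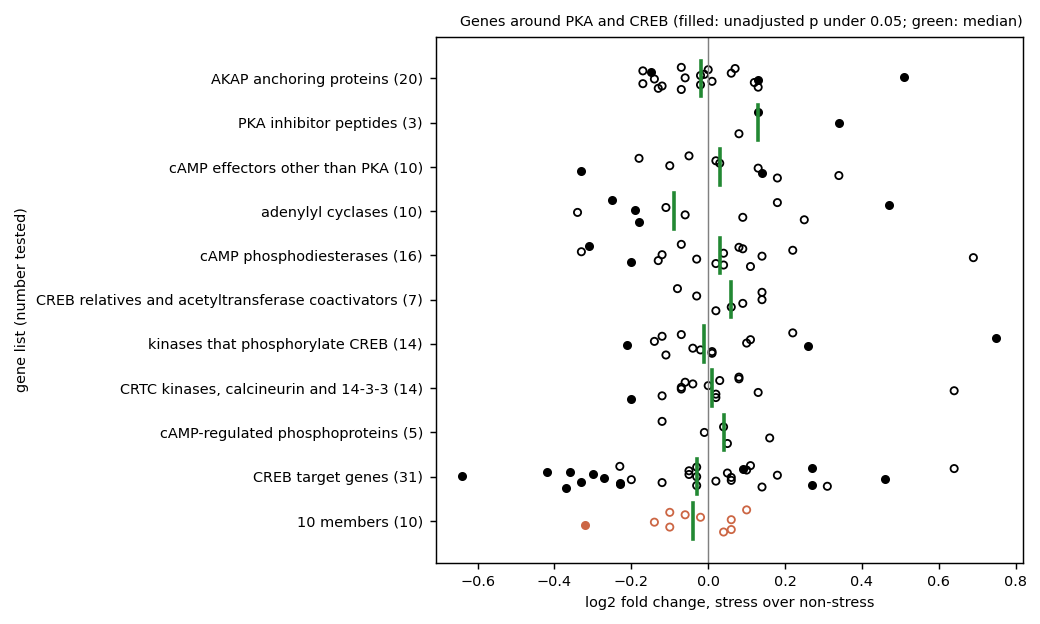
Log2 fold change of stress over non-stress for each tested gene of the 10 pathway lists (black) and for the 10 members (orange), with medians in green and genes at an unadjusted p under 0.05 filled. The members lie between -0.32 (Crtc2) and 0.10 (Prkar2b), and CREB target genes spread from -0.64 to 0.64.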

How the data were processed

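RNA was sequenced from 6 libraries, 3 per group. Per the labels' protocols, a SMARTer low-input kit and TruSeq construction were used. Per the submitters' processing notes, Trimmomatic 0.38, HISAT2 and StringTie were used with GRCm38 (mm10). The counting step, annotation, strand use and multi-mapping were not given in the sources used here, so reads of overlapping or near-identical genes may be split.

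The authors deposited whole-number counts per gene, which were used unchanged. edgeR 4.0.16 (R 4.3.3) filtered genes (filterByExpr), scaled libraries (TMM factors 0.996 to 1.00) and tested group as the single term, two-sided, with Benjamini-Hochberg adjustment over 19227 genes. CPM used library totals. RPKM used GENCODE M21 exon lengths, known for 17313 tested genes (90.0%). Gene positions come from the RefSeq table for GRCm38.p6. The step was tested on simulated data, where it called 38.3% of genes changed 1.25-fold, 46.9% at 1.5-fold, 73.5% at 2-fold and 93.6% at 4-fold. There were 10 false calls among 18929 genes run, so small differences are often missed.

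Members and lists were chosen with earlier results of these data known. Named were all members, the 2 genes of smallest p per list, and the 3 profiles nearest the member of smallest p (candidates had a mean of at least 10 CPM, with 0.5 added before log2). Crtc3, Pkia, Prkaca-ps1, Adcy7 and 5 CREB targets were added after their values were seen, and the leading genes of the list of other cyclic AMP effectors are not reported here. Alternatives were RLE and upper quartile factors, no filter or 50 counts in 3 libraries, each library left out, a replicate block, DESeq2 1.42.0, limma-voom (limma 3.58.1) and a separate term for non-stress 2 and 3. Removal of a GC trend was added after seeing the data.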

Additional observations from a re-analysis of the deposited data

How the results depend on the processing

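None of the 10 members passed the threshold under any of the 15 alternatives, and the lowest adjusted p was 0.0681 (Prkar2b, without non-stress 1). With 1 library left out, edgeR called 1 to 756 genes in all, against 1 with all libraries, and the 756 (577 higher, 179 lower, 3.85% of genes tested) came without non-stress 1. It called 2 with the replicate block, 16 with non-stress 2 and 3 given their own term, and 9 with the GC trend taken out, while DESeq2 called 107 (45 higher, 62 lower) and limma-voom 2. Same-numbered libraries deviated together little (r = 0.016, -0.0298 and 0.0209), so the numbers were not taken as pairs, and the replicate block changed no call of a member.

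Of 150 member values under alternatives, 145 kept their direction. Creb1 ran from -0.08 (without non-stress 2) to 0.12 (without non-stress 3) with 1 library left out, and turned to -0.04 with the separate term and -0.06 with the GC trend taken out. With the separate term Prkar2a turned to 0.06, Prkar2b to -0.06, Pde8a to 0.02, Atf2 to -0.01, Arpp21 to -0.06 and Ppp1r1b to 0.10, and with the GC trend taken out Atf2 turned to -0.02 and Pkia to -0.04. Crtc2 ranged from -0.41 to -0.11. The causes were not tested. With 3 libraries a group, differences inside the 95% intervals (-0.10 to 0.06 in Prkar1a, -0.59 to -0.05 in Crtc2) cannot be told apart. Without non-stress 1, 9 of the 23 other genes chosen by the naming rule passed, against 3.85% of all genes. The rule picked these genes by small p or near profile in these same libraries, so that count is not a test of them. Nr4a1 also passed by edgeR without non-stress 2 (adjusted p = 0.0281) and with the GC trend taken out (0.0197).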
